A study of Mus musculus with 23 samples.

Results

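Adipocytes are the fat-storing cells of white and brown adipose tissue, and 8 genes by which they are commonly recognised were read here in whole lung RNA: Adipoq, Cfd, Retn, Plin1, Cidea, Fabp4, Pck1 and Ucp1. The members were the rows of the deposited expression table that carry these symbols, and all 8 were found once among 35322 rows. The lungs came from 23 BALB/c offspring aged 13 weeks, described as female, whose dams had been given airborne fine particulate matter (PM2.5) or saline from before mating to weaning. The offspring were then sensitised to and challenged with ovalbumin (OVA), which gives an allergic airway disease, or were given saline (named PBS in the labels). The groups were Sham (saline dams, no OVA, n = 7), Sham-OVA (saline dams, OVA, n = 5), PM (PM2.5 dams, no OVA, n = 7) and PM-OVA (PM2.5 dams, OVA, n = 4). Each library was made from polyA RNA of a piece of the right lung. The labels do not say which offspring shared a dam, so the p-values measure only the spread between these samples.

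Healthy lung tissue holds few adipocytes, but fat lies along the large airways and in the mediastinum beside the lung and can be carried along when a lobe is dissected. Adipocytes store triglyceride in a droplet coated by perilipin, release fatty acids from it on demand, and secrete hormones and proteins into the blood. Brown adipocytes also burn fat to make heat. Several of these genes are used outside fat: Fabp4 is expressed by capillary endothelium and macrophages, and Pck1 by liver and kidney. In bulk tissue such as this, fewer cells of a type and less RNA per cell cannot be told apart.

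The total of reads on genes ran from 13089691 to 17393579 in the 14 libraries without OVA and from 2298645 to 12355561 in those with OVA. Values are given as RPM, the reads of a gene per 1000000 reads of the library, and 1 read was worth 0.0502 to 0.0688 RPM in the libraries without OVA and 0.0672 to 0.311 RPM in those with OVA. Sham-OVA replicate 3, PM-OVA replicate 3 and PM-OVA replicate 4 held under 6000000 reads each. Sham-OVA replicate 3 also stood apart by its muscle genes. The summed level of 9 cardiac muscle genes was 448 RPM there and 55.9 to 94.7 RPM in the other Sham-OVA libraries, and that of 7 skeletal muscle genes was 88.9 RPM against 7.22 to 13.4 RPM. PM replicate 1 held Clca1, a gene of mucus-secreting goblet cells, at 178 RPM, where the PM median was 0.104 RPM and the lowest PM-OVA library held 1063 RPM. In 1 Sham library, replicate 1, the transcript of the inactive X chromosome, Xist, stood at 0.289 RPM and the Y-linked Eif2s3y at 54.0 RPM, which goes against the label of a female. Without it, 2 members were called after OVA in Sham offspring, as with it. All 8 genes of an OVA response list were called higher after OVA in both cohorts.

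The secreted proteins were represented by Adipoq (adiponectin, the most abundant hormone of fat), Cfd (adipsin, the complement factor D protease) and Retn (resistin). In Sham lungs Adipoq ranged from 0.502 to 4.88 RPM with a median of 1.63 RPM, Cfd from 2.14 to 15.7 RPM with a median of 7.55 RPM, and Retn from 0.116 to 1.14 RPM with a median of 0.465 RPM. The droplet proteins were Plin1 (perilipin 1, the coat of the adipocyte droplet), which ranged from 0.0579 to 5.58 RPM with a median of 1.36 RPM, and Cidea (a protein of droplet fusion that is prominent in brown fat), which ranged from 0.635 to 1.97 RPM with a median of 0.872 RPM. Within the Sham group the lungs differed widely for each of these genes, and replicate 4 was the highest for all of them.

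Fabp4, the carrier of fatty acids in the cytoplasm, ranged from 6.28 to 20.8 RPM in Sham lungs with a median of 9.25 RPM. Pck1, the cytosolic phosphoenolpyruvate carboxykinase that supplies glycerol for triglyceride, ranged from 0.232 to 17.3 RPM with a median of 1.73 RPM. Ucp1, the uncoupling protein of brown fat, was at 0 in 3 of 7 Sham libraries and reached 0.521 RPM, 9 reads, in replicate 3. Ucp1 was thus near the limit of detection, and a count of 0 allowed up to 0.190 RPM in the Sham library with the fewest total reads.

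Per kilobase of exon, the mean Sham level was 7.80 ± 4.84 RPM per kb (SD, n = 7) for Cfd, 2.27 ± 1.09 for Fabp4, 1.33 ± 1.08 for Adipoq, 1.09 ± 1.78 for Pck1, 1.04 ± 0.485 for Cidea, 0.425 ± 0.382 for Plin1, 0.356 ± 0.235 for Retn and 0.0707 ± 0.114 for Ucp1. Cfd stood over the other members by more than 1 SD on these lengths. The annotated exons of Fabp4 together cover all 4489 bases of its gene. A spliced transcript may be shorter and its value per kb higher, so the rank of Fabp4 among the members is not settled. The neighbours Fabp4 and Adipoq, Adipoq and Pck1, Pck1 and Cidea, and Plin1 and Retn differed by no more than 1 SD of either gene. On the same lengths the same 3 members, Cfd, Fabp4 and Adipoq, led in PM lungs, at 8.86 ± 5.11, 2.75 ± 1.64 and 1.53 ± 1.10 RPM per kb (SD, n = 7).

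**Figure D1:**
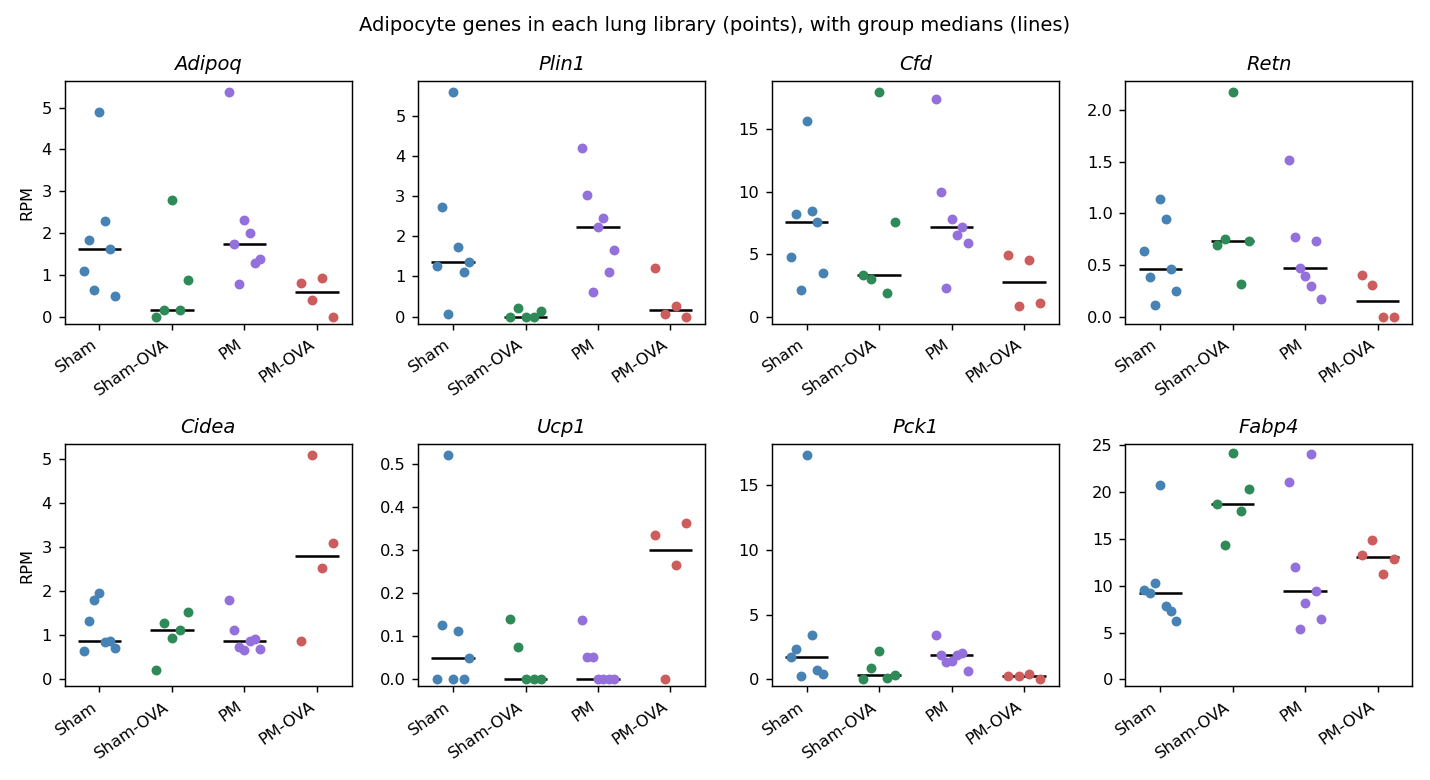
Level in RPM (vertical axis, linear, own scale per gene) of each of the 8 adipocyte genes in each of the 23 libraries (points) by group, with the group median as a line. Sham replicate 4 is the highest Sham point for 7 of the 8 genes and PM replicate 1 the highest PM point for 7 of the 8.

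The spread between lungs of 1 group was shared by most members. Sham replicate 4 held the highest Sham value of 7 of the 8 members, with Ucp1 as the exception, and PM replicate 1 held the highest PM value of 7 of the 8, with Fabp4 as the exception. Among Sham-OVA lungs, replicate 3 was highest for 5 of the 8 members. As deviations from the group means on the log2 scale over 23 libraries, Adipoq correlated with Cfd at r = 0.91 (Spearman 0.89), with Pck1 at r = 0.78 (0.72), with Retn at r = 0.73 (0.57), with Plin1 at r = 0.62 (0.59), with Fabp4 at r = 0.58 (0.45) and with Cidea at r = 0.25 (0.23). Without Sham-OVA replicate 3 and Sham replicate 4, whose Adipoq deviated most, these were 0.87, 0.68, 0.58, 0.66, 0.46 and 0.18. Each point is 1 library that gives both values, so the genes share its depth, dissection and RNA composition, and the coefficients are given as a description. Among 16794 other tested genes Cfd ranked 1 and Pck1 ranked 2 by likeness to Adipoq over the 23 libraries, while Cidea ranked 1857. In the 14 libraries without OVA alone, Adipoq correlated with Cidea at r = 0.55. There the other tested members ran from 0.69 for Fabp4 to 0.92 for Cfd.

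**Figure D2:**
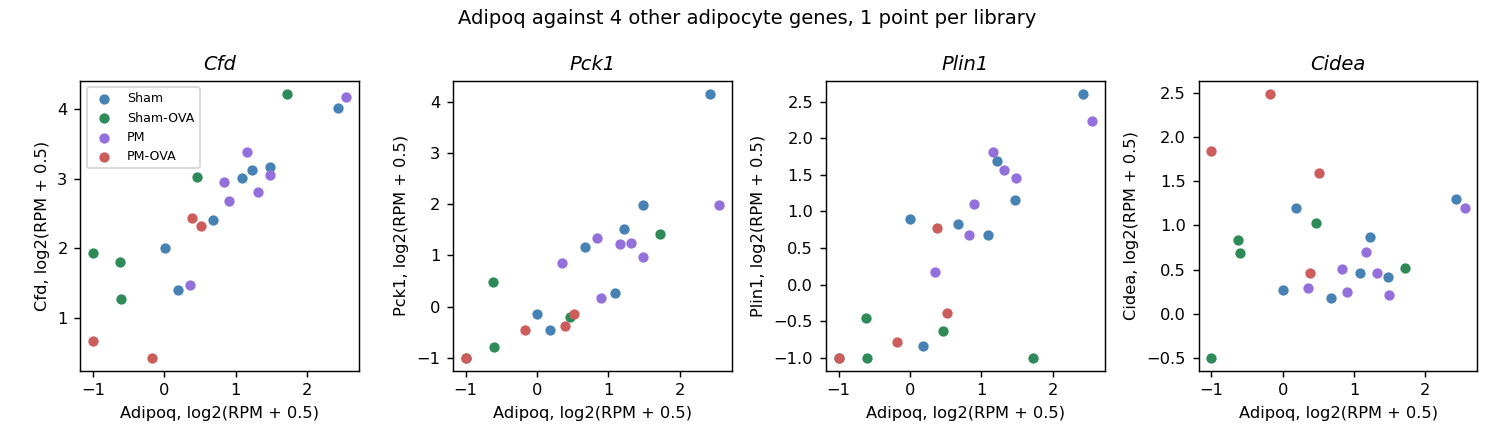
Level of Cfd, Pck1, Plin1 and Cidea (vertical axes) against Adipoq (horizontal axis), each as log2(RPM + 0.5), with 1 point per library and groups by colour. Cfd and Pck1 rise with Adipoq over the libraries of all 4 groups, and in the Cidea panel the PM-OVA points include the highest Cidea value, 5.10 RPM in replicate 2.

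The genes outside the 8 that were most like Adipoq by the same measure were Unc79, Car3, Agt, Hepacam, Gjb1, Klhdc8a, F2rl1, Cidec, 1700052K11Rik and Chst5, with r from 0.69 to 0.75. Car3 (carbonic anhydrase 3, abundant in fat and muscle) and Cidec (which enlarges the droplets of white adipocytes) were among them, with r of 0.74 and 0.69. The list was not stable: 5 of the 10 were also in the top 10 by Spearman's rho, and 1 was in the top 10 of the 14 libraries without OVA.

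The first comparison asked how OVA changed these genes in offspring of saline dams. Plin1 fell and Fabp4 rose in Sham-OVA lungs, and the other tested members did not pass the test. In all, 1 of 7 tested members was called higher and 1 lower (limma, adjusted p under 0.05), where 20.6% of the 16795 genes tested were higher and 47.5% lower. The median log2 fold change was -0.28 over the tested members and -0.48 over all genes. Ucp1 reached 0.5 RPM in 1 library and was not tested. The share of calls that were higher moved with the scaling, from 30.2% here to 43.4% with median-of-ratios scaling and 48.5% with quantile normalisation. DESeq2 and edgeR each called 2 members, against 70.0% and 67.0% of genes.

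Plin1 in Sham-OVA replicates 1 to 5 was 0, 0.226, 0, 0 and 0.146 RPM, which came to 5 reads in all. Each of these lungs lay below the Sham median of 1.36 RPM, and 3 of the 5 held no read, which allowed up to 0.208, 0.932 and 0.239 RPM in replicates 1, 3 and 4. These limits lay above the lowest Sham lung, replicate 3 at 0.0579 RPM (1 read), and below the other Sham lungs. The log2 fold change was -1.82 (SE 0.42, adjusted p = 0.00153), and because so few reads were left its size depended on the pseudocount and tool, from -1.28 with 1 RPM added to -3.22 with 0.1 RPM added and -4.11 in DESeq2.

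Fabp4 in Sham-OVA replicates 1 to 5 was 18.7, 14.4, 24.2, 18.0 and 20.3 RPM. Every one of these lungs lay above the Sham median of 9.25 RPM, and the ranges overlapped through Sham replicate 4, at 20.8 RPM. Fabp4 thus changed by 0.95 on the log2 scale (SE 0.25, adjusted p = 0.00365). With the trend of each library with transcript length and GC content removed, the Fabp4 value was 1.81 (adjusted p = 0.000139). That removal took the longest annotated Fabp4 transcript, 4231 bases in a gene of 4489, which may not be the form expressed here. The 1.81 is therefore not taken as a better estimate. In the same comparison the summed level of 10 alveolar macrophage genes ranged from 777 to 926 RPM in Sham-OVA and from 229 to 374 RPM in Sham, and 4 of its 8 tested genes were called higher and 3 lower. Of 12 capillary endothelial genes, all tested, 2 were called higher and 7 lower, with a summed level of 4593 to 5576 RPM in Sham-OVA and 3815 to 8284 RPM in Sham. The part of these cells in the Fabp4 result was not tested.

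Adipoq in Sham-OVA replicates 1 to 5 was 0, 0.150, 2.80, 0.159 and 0.876 RPM. In 3 of these lungs it lay below every Sham lung, while replicate 3 lay above the Sham median. Its log2 fold change was -1.02 (SE 0.48, adjusted p = 0.0709). Pck1 was 0, 0.903, 2.17, 0.0797 and 0.365 RPM, again with replicate 3 the highest, and its log2 fold change was -1.23 (SE 0.67, adjusted p = 0.119).

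Both values moved with single libraries, in either direction. Without Sham-OVA replicate 3, the shallow library with the raised muscle genes, the log2 fold changes were -1.45 for Adipoq (adjusted p = 0.00306) and -1.59 for Pck1 (adjusted p = 0.0343), and 4 members in place of 2 were called, 1 higher and 3 lower. Without Sham replicate 4, the highest Sham lung for both, they were -0.78 (adjusted p = 0.139) and -0.74 (adjusted p = 0.213). Adipoq was also called without Sham replicate 7, at -1.19 (adjusted p = 0.0438), with 0.1 RPM added, at -1.78 (adjusted p = 0.0476), with array weights (each library weighted by its scatter about the fit), at -1.62 (adjusted p = 0.000101), and when the 4 groups shared a single fit, at -1.02 (adjusted p = 0.0483). Array weights also called Pck1, at -1.88 (adjusted p = 0.00178), and Cfd, at -1.12 (adjusted p = 0.00385). The part of the raised muscle signal in these values was not tested.

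Cfd in Sham-OVA replicates 1 to 5 was 3.34, 3.01, 18.0, 1.91 and 7.60 RPM, with replicate 3 above every Sham lung and replicate 4 below every Sham lung. Its log2 fold change was -0.28 (SE 0.50, adjusted p = 0.631), and without replicate 3 it was -0.72 (adjusted p = 0.117). Retn was 0.695, 0.752, 2.17, 0.319 and 0.730 RPM, with a log2 fold change of 0.39 (SE 0.30, adjusted p = 0.262). Without replicate 3 the Retn value was 0.14 (adjusted p = 0.653), and quantile normalisation called it, at 0.90 (adjusted p = 0.0435). Cidea was 0.208, 1.28, 0.932, 1.12 and 1.53 RPM, within the Sham range except for replicate 1, with a log2 fold change of -0.16 (SE 0.29, adjusted p = 0.641). The signs of Cfd and Cidea turned under median-of-ratios scaling, to 0.064 and 0.11, so no direction is given for them. Ucp1 was 0.139, 0.0752, 0, 0 and 0 RPM, from 0 to 2 reads.

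The second comparison asked the same in offspring of PM2.5 dams. Adipoq, Plin1, Cfd and Pck1 fell in PM-OVA lungs and Cidea rose. In all, 1 of 7 tested members was called higher and 4 lower (limma, adjusted p under 0.05), where 20.1% of genes were higher and 45.2% lower. The median log2 fold change was -1.30 over the tested members and -0.43 over all genes, and relative to that shift the 4 lower members stood at -0.87 to -1.21. The share of all calls that were higher moved from 30.8% to 44.7% with median-of-ratios scaling and 49.3% with quantile normalisation. DESeq2 and edgeR each called 4 members, with Cfd lost, against 64.6% and 60.8% of genes.

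**Figure D3:**
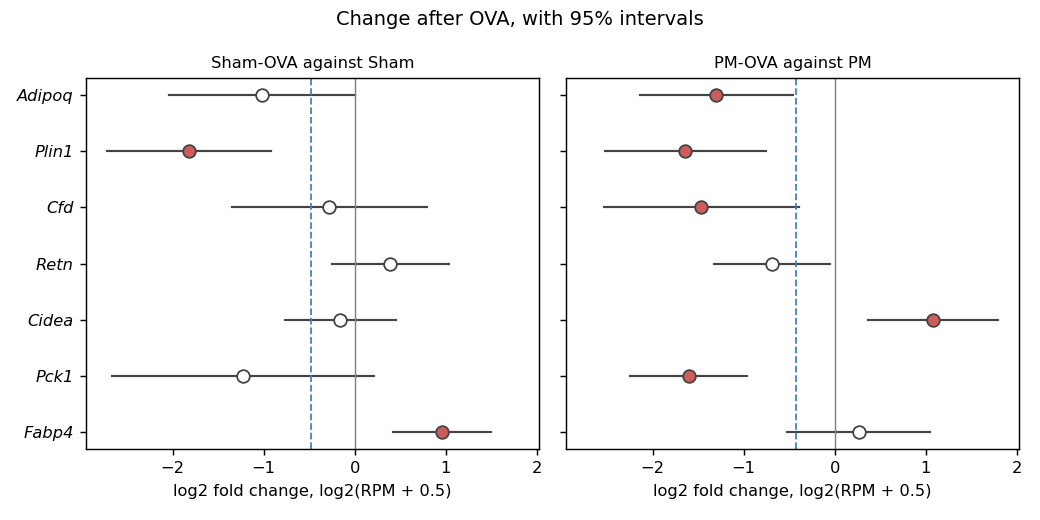
Log2 fold change after OVA on the log2(RPM + 0.5) scale (horizontal axis) of the 7 tested adipocyte genes in offspring of saline dams (left) and of PM2.5 dams (right). Bars are 95% intervals, filled points have an adjusted p under 0.05, and the dashed line is the median of all genes, at -0.48 and -0.43. Plin1 and Fabp4 are filled on the left, and Adipoq, Plin1, Cfd, Cidea and Pck1 on the right.

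In GRCm38 (GENCODE M21) Adipoq lies at chr16:23146536-23158028, Plin1 at chr7:79720218-79732903, Cfd at chr10:79890853-79892655, Pck1 at chr2:173153048-173159273, Retn at chr8:3655770-3660110, Ucp1 at chr8:83290352-83298452 and Fabp4 at chr3:10204088-10208576, and all are protein-coding genes that no other annotated gene overlaps.

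Pck1 in PM-OVA replicates 1 to 4 was 0.269, 0.232, 0.398 and 0 RPM. In PM lungs it ranged from 0.626 to 3.44 RPM with a median of 1.84 RPM. All 4 OVA lungs lay below all 7 PM lungs. The share of all genes whose groups were apart in this way was not counted. The log2 fold change was -1.61 (SE 0.30, adjusted p = 0.000588), and each OVA library rested on 0 to 4 reads.

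Plin1 in PM-OVA replicates 1 to 4 was 1.21, 0.0773, 0.266 and 0 RPM, against 0.623 to 4.20 RPM with a median of 2.24 RPM in PM. Replicate 1 lay within the PM range, and the other 3 lay below it. Its log2 fold change was -1.64 (SE 0.41, adjusted p = 0.00382).

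Adipoq was 0.806, 0.386, 0.929 and 0 RPM in PM-OVA replicates 1 to 4, against 0.779 to 5.37 RPM with a median of 1.74 RPM in PM. All 4 lay below the PM median and 2 below every PM lung. Its log2 fold change was -1.30 (SE 0.39, adjusted p = 0.0107), and the call was lost with quantile normalisation (-0.88, adjusted p = 0.0515) and array weights (-1.17, adjusted p = 0.107).

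Cfd was 4.90, 0.850, 4.51 and 1.09 RPM in PM-OVA replicates 1 to 4, against 2.28 to 17.5 RPM with a median of 7.21 RPM in PM. The 4 OVA lungs fell into a pair within the PM range and a pair below it. The log2 fold change was -1.47 (SE 0.49, adjusted p = 0.0195). The call was lost without PM-OVA replicate 2 (-1.12, adjusted p = 0.0725) and without PM-OVA replicate 4 (-1.20, adjusted p = 0.0680). It was also lost with quantile normalisation, median-of-ratios scaling, array weights, the replicate block or thinning to 1 depth (-1.02 to -1.56, adjusted p from 0.0550 to 0.125).

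Cidea moved the other way, at 0.873, 5.10, 2.52 and 3.09 RPM in PM-OVA replicates 1 to 4, against 0.658 to 1.79 RPM with a median of 0.880 RPM in PM. Of the 4 OVA lungs, 3 lay above every PM lung and replicate 1 lay just below the PM median. Its log2 fold change was 1.08 (SE 0.33, adjusted p = 0.0118). The call was lost with the length and GC trend removed (0.67, adjusted p = 0.0722) and with the replicate block (0.99, adjusted p = 0.103). Cidea is on chromosome 18, and its 5′ end shares 500 bases with the antisense gene B430212C06Rik. Whether the counting used strand is not given in the sources used here. B430212C06Rik was at 0 in all PM-OVA libraries.

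Retn was 0.403, 0.309, 0 and 0 RPM in PM-OVA replicates 1 to 4, where 0 reads allowed up to 0.398 and 0.545 RPM in replicates 3 and 4. In PM it ranged from 0.171 to 1.51 RPM with a median of 0.467 RPM. The log2 fold change was -0.69 (SE 0.30, adjusted p = 0.0554). Retn was called without PM replicate 5, PM replicate 7 or PM-OVA replicate 1 (-0.76 to -0.85, adjusted p from 0.0283 to 0.0466). It was also called with 0.1 RPM added, the replicate block or the length and GC trend removed (-0.80 to -1.54, adjusted p from 0.0210 to 0.0367), and was -0.30 (adjusted p = 0.491) without PM-OVA replicates 3 and 4. Fabp4 was 13.3, 14.9, 11.3 and 12.9 RPM, all above the PM median of 9.47 RPM and within the PM range of 5.35 to 24.1 RPM, with a log2 fold change of 0.26 (SE 0.36, adjusted p = 0.538). The top of that range was PM replicate 5. Its summed capillary endothelial genes, 2446 RPM, were the lowest of the PM lungs, whose median was 7656 RPM. Without PM replicate 5 the Fabp4 value was 0.45 (adjusted p = 0.230). With the length and GC trend removed, the Fabp4 value was 1.14 (adjusted p = 0.0202), under the same limit of the transcript length used.

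Ucp1 was 0.336, 0, 0.266 and 0.363 RPM in PM-OVA replicates 1 to 4, from 0 to 5 reads, and reached 0.138 RPM in PM. In 3 of the 4 OVA lungs it lay above every PM lung. Of these, the shallow replicates 3 and 4 held 2 reads each, the same count as the highest PM lung, replicate 1. Ucp1 was not tested in the filtered table. With no filter on low values its log2 fold change was 0.45 (limma, adjusted p = 0.0248), on 9 reads in PM-OVA and 4 in PM.

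With the shallow PM-OVA replicates 3 and 4 left out, an alternative added after the data were seen, 1 member of the 5 stayed called, Pck1 at -1.52 (adjusted p = 0.00485). The values of the other 4 were then -1.12 for Adipoq, -1.30 for Plin1, -1.50 for Cfd and 0.96 for Cidea, with adjusted p from 0.0531 to 0.0833. These folds lay within 1.5 times of those over all 4 lungs, and the group was reduced to 2 lungs. PM replicate 1, which held Clca1 reads, was the highest PM lung for most members, and without it the same count of 5 members was called, with Adipoq at -1.08 (adjusted p = 0.0127) and Cidea at 1.19 (adjusted p = 0.00831).

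The promoters of the 4 members that were lower after OVA in PM offspring are shown because these genes moved together, from 250 bases before to 50 bases after the start site (RefSeq, GRCm38.p6). Of the 8 members, 6 were matched in the promoter table, and Fabp4 and Cidea were not. Capitals mark matches on either strand to TTGCNNAA (an element of the kind bound by the C/EBP factors of adipocytes) or GGGCGG (the GC box bound by Sp1).
Adipoq, chr16:23146286-23146585, plus strand: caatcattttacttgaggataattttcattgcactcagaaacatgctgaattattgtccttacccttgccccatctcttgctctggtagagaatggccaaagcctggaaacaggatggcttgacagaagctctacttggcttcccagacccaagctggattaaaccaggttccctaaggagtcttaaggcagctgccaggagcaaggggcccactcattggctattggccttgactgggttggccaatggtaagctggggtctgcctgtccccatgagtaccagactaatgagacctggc
Plin1, chr7:79732727-79733026, minus strand: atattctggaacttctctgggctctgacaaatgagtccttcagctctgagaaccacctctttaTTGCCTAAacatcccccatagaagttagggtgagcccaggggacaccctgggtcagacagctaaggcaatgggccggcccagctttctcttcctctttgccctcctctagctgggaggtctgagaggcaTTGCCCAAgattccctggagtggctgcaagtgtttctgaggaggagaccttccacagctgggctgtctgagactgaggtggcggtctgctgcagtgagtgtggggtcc
Cfd, chr10:79890603-79890902, plus strand: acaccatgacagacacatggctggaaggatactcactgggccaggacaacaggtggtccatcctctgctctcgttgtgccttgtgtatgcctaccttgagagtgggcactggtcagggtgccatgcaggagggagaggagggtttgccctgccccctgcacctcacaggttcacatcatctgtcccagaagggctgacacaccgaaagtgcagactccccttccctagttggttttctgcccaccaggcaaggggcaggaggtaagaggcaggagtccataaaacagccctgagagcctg
Pck1, chr2:173152823-173153122, plus strand: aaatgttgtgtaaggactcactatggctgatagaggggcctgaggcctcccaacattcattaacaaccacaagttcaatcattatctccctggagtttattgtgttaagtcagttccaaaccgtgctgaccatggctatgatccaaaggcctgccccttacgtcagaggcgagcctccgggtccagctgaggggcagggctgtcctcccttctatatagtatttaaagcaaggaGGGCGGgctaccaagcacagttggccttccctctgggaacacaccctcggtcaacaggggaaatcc

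Plin1 held TTGCNNAA at -187 and at -58 from the start, a motif found in 10.8% of 32851 promoters of this length. Pck1 held GGGCGG at -16, a motif found in 35.7% of them. The nuclear receptor element AGGTCA, found in 16.3%, was in none of these 4 and in Ucp1 at -14 among the 6 matched members. The letters TATAAA, found in 13.6%, and a direct repeat of AGGTCA with 1 base between, the site of the PPARG and RXR pair, found in 0.0396%, were in none of the 6. Adipoq, Cfd and Retn held no match to any of the 5 motifs. These matches describe letters in the window and show neither binding nor its absence.

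The next comparison asked whether maternal PM2.5 changed the genes in lungs without OVA. None of the 7 tested members was called, and 0% of the 16795 genes were (limma, adjusted p under 0.05). At an unadjusted p under 0.05 there were 0 members and 731 genes, which is 4.35% of those tested, and DESeq2 and edgeR called 0 genes. The ranges of all 8 members overlapped. The log2 differences, PM minus Sham, ran from -0.15 for Cidea to 0.29 for Plin1. The 95% interval was -0.55 to 0.99 for Adipoq, -0.64 to 1.04 for Cfd and -1.27 to 1.07 for Pck1, and changes within these bounds were not resolved with 7 lungs a group.

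With OVA, PM-OVA was compared with Sham-OVA. Again 0 members were called and 0% of genes, while 3 members and 313 genes (1.86%) had an unadjusted p under 0.05, DESeq2 called 1 gene and no member, and edgeR called 0 genes. The 3 members were Retn, Cidea and Fabp4. Retn was lower in PM-OVA by -1.02 (95% interval -1.80 to -0.23), but its groups were not shown to be apart: 2 PM-OVA lungs held no read, where up to 0.398 and 0.545 RPM was allowed, and PM-OVA replicate 2, at 0.309 RPM, and the lowest Sham-OVA lung, at 0.319 RPM, rested on 4 reads each. Cidea was higher by 1.08 (0.069 to 2.09), with 3 of the 4 above all Sham-OVA lungs. Fabp4 was lower by -0.52 (-0.99 to -0.041), with 3 of the 4 below all Sham-OVA lungs. The adjusted p was 1 for each. With the 3 shallow libraries left out the values were -0.37 for Retn, 0.96 for Cidea and -0.32 for Fabp4 (adjusted p from 0.385 to 0.417).

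Whether the change after OVA differed between cohorts was tested directly as the interaction of maternal exposure and OVA over all 23 libraries. No member was called, and 0% of genes were, while 2 members and 854 genes (5.08%) had an unadjusted p under 0.05. DESeq2 called 2 genes and edgeR called 0, with no member among them. The 2 members were Cidea, with a difference in log2 change of 1.24 (95% interval 0.32 to 2.16, adjusted p = 0.683), and Retn, at -1.08 (-1.98 to -0.18, adjusted p = 0.826). With the 3 shallow libraries left out these were 1.11 (adjusted p = 0.213) and -0.44 (adjusted p = 0.593). For Adipoq, Plin1 and Pck1 the difference was -0.28, 0.18 and -0.38, with intervals that spanned 0, and with 1 library left out the Pck1 value ran from -0.87 to -0.020. Cfd, called in PM offspring and not in Sham offspring, differed by -1.19 (-2.74 to 0.37, adjusted p = 1.00), so its change was not shown to differ between the cohorts, and it ran from -1.51 to -0.74 with 1 library left out.

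**Figure D4:**
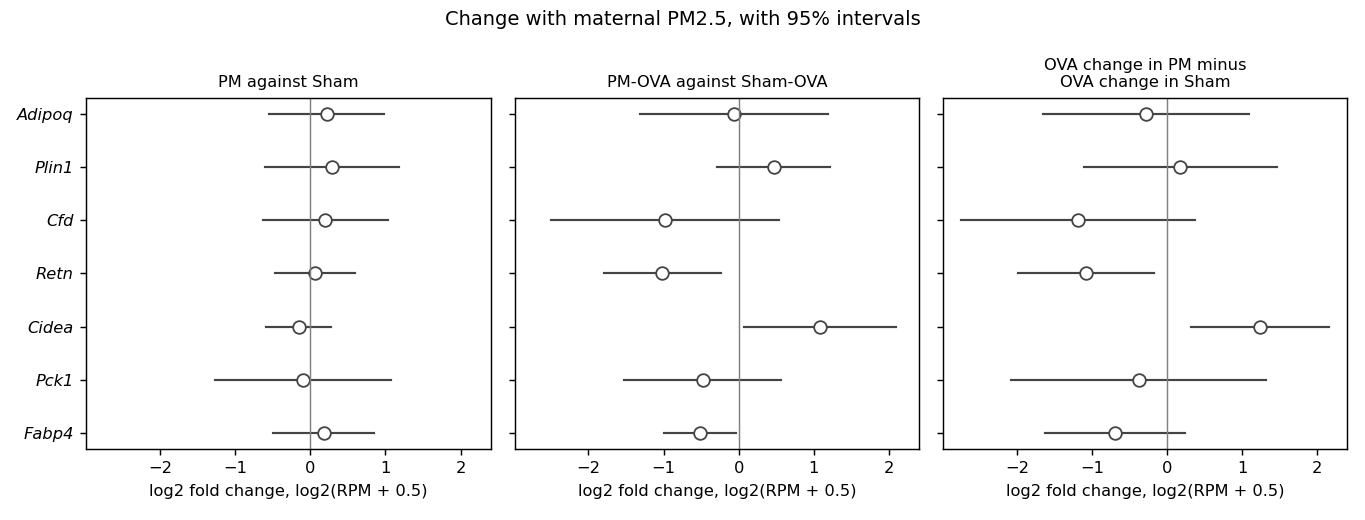
Log2 differences on the log2(RPM + 0.5) scale (horizontal axis) of the 7 tested adipocyte genes between PM and Sham, between PM-OVA and Sham-OVA, and between the OVA changes of the cohorts, with 95% intervals as bars. No point is filled, since no adjusted p was under 0.05. The intervals of Retn and Cidea leave out 0 in the middle and right panels, and that of Fabp4 does so in the middle panel.

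Other genes of fat were read from lists. Among all genes tested, 20.6% were called higher and 47.5% lower in Sham offspring, and 20.1% and 45.2% in PM offspring. These shares stand beside every list count below. Of 20 white and general adipocyte genes, 16 were tested, and 1 was called higher and 7 lower after OVA in Sham offspring, with a median log2 fold change of -0.38. In PM offspring 0 were called higher and 6 lower, with a median of -0.39. Both medians lay close to the -0.48 and -0.43 of all genes.

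The lower genes included droplet and fat genes that fell in both cohorts. Cidec had a median of 11.2 RPM in Sham and 2.03 RPM in Sham-OVA (log2 fold change -1.79, SE 0.45, adjusted p = 0.00277), and 10.2 RPM in PM and 1.53 RPM in PM-OVA (-2.80, SE 0.43, adjusted p = 0.000225). Car3 fell by 2.36 and by 3.30 on the log2 scale (adjusted p = 0.000818 and 0.000174). Adrb3, the beta-3 adrenergic receptor that starts fat release, fell by 2.32 and by 2.10 (adjusted p = 0.000157 and 0.00179). The study lists Adrb3 among the signature genes of lung mesenchymal cells. The mean Sham level of Adrb3 was 16.4 RPM, where that of Adipoq was 1.84 RPM. Pparg, the master regulator of fat cell formation that alveolar macrophages also use, fell by 1.11 and by 1.44 (adjusted p = 0.00444 and 0.00850).

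Plin4, a perilipin of small droplets, fell by 2.14 and by 1.27 (adjusted p = 0.00169 and 0.00386), and Cebpa, a partner of Pparg, by 0.57 and by 0.60 (adjusted p = 0.0208 and 0.0163), which is close to the shift of all genes. In DESeq2 the calls of Plin4 and Cebpa were lost in both cohorts and that of Cidec in Sham offspring (adjusted p = 0.153). Adig, a small adipocyte protein, was called higher in Sham offspring, by 0.77 (adjusted p = 0.0246). The defining marker Lep, the hormone leptin, was not tested, with a highest value of 0.550 RPM in any library and 0 in all 4 PM-OVA libraries.

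Of 16 brown adipocyte genes, 10 were tested, with 1 higher and 1 lower in Sham offspring and 2 higher and 1 lower in PM offspring. Cox7a1, a respiratory chain subunit of muscle and brown fat, rose by 1.09 and 1.03 (adjusted p = 0.00243 and 0.00861). Prdm16, a determinant of brown fat that lung endothelium also uses, fell by 1.55 and by 1.32 (adjusted p = 2.61e-06 and 0.000224). Cpt2, which imports fatty acids into mitochondria, rose by 0.34 in PM offspring (adjusted p = 0.0350). Slc27a2, a fatty acid transporter, was at -0.77 in Sham offspring (adjusted p = 0.0505) and -0.21 in PM offspring (adjusted p = 0.594). Of the brown fat markers, Zic1 was at 0 in every library and Otop1 reached 0.153 RPM.

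Of 15 genes of fat uptake, storage and release, 14 were tested, with 3 higher and 5 lower in Sham offspring and 3 higher and 7 lower in PM offspring. Dgat1, which makes triglyceride, rose by 1.30 and 1.38 (adjusted p = 0.000637 and 0.000528), while Dgat2, which does so at the droplet, fell by 1.60 and by 0.72 (adjusted p = 0.00023 and 0.0263). Acsl1, which activates fatty acids, fell by 2.38 and by 1.53 (adjusted p = 4.09e-05 and 0.00326). Fabp5, the relative of Fabp4 in macrophages and epithelium, rose by 0.89 and 0.57 (adjusted p = 0.00731 and 0.0337). Abhd5, the cofactor of triglyceride breakdown, fell by 0.47 and by 0.57 (adjusted p = 0.0178 and 0.00272), close to the shift of all genes. In DESeq2 the calls of Abhd5 were lost in both cohorts and that of Dgat2 in PM offspring (adjusted p = 0.195).

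The 12 receptors, relatives and partners of the secreted members were all tested, with 6 higher and 4 lower in each cohort. For adiponectin, Adipor1 had medians of 211 RPM in Sham and 221 RPM in Sham-OVA and was not called by limma (0.065, 95% interval -0.21 to 0.34), although DESeq2 called it (adjusted p = 0.00276). Adipor2 fell by 1.29 and by 1.07 (adjusted p = 2.54e-06 and 0.00127). Cdh13, the T-cadherin that holds adiponectin on endothelium, fell by 2.47 and by 2.31 (adjusted p = 2.18e-08 and 5.74e-05), from a median of 38.8 RPM in Sham to 6.79 RPM in Sham-OVA, with no overlap.

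The relatives of Retn rose in both cohorts. Retnla, the resistin-like protein of alternatively activated macrophages and airway, rose by 9.74 and 9.12 (adjusted p = 9.21e-10 and 1.61e-06). Retnlb rose by 3.70 and 4.52, and Retnlg by 4.23 and 3.38 (adjusted p from 3.87e-06 to 0.000151 for the 4 values). Of the proposed resistin receptors, Cap1 was not called by limma (0.026 and -0.12) but was by DESeq2 (adjusted p = 0.00145 and 0.0103), and Tlr4 fell by 1.36 and by 1.41 (adjusted p = 0.000194 and 0.000351).

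Cfd cuts factor B in the alternative pathway of complement, and the genes around it rose. C3, the central component, rose by 2.08 and 1.70 (adjusted p = 8.58e-06 and 5.23e-05), Cfb, factor B itself, by 0.97 and 0.62 (adjusted p = 0.00092 and 0.0168), and Cfp, properdin, by 3.18 and 2.44 (adjusted p = 7.00e-08 and 2.98e-06). Lepr, the leptin receptor, fell by 1.72 and by 1.69 (adjusted p = 2.70e-07 and 2.33e-05).

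**Figure D5:**
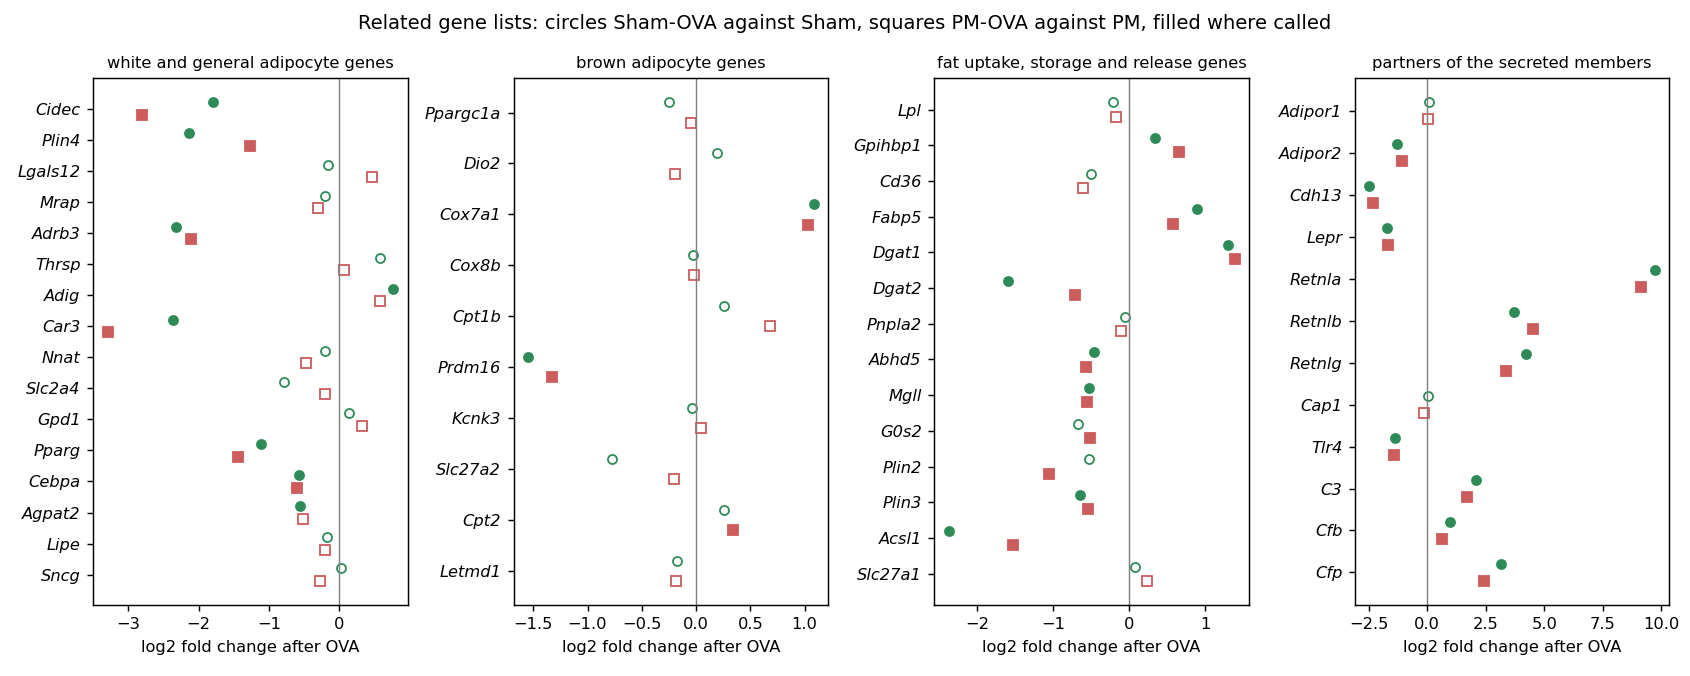
Log2 fold change after OVA (horizontal axes, own scale per panel) of the tested genes of 4 lists, with circles for Sham-OVA against Sham and squares for PM-OVA against PM, filled where the adjusted p was under 0.05. Cidec, Plin4, Adrb3, Car3 and Pparg are filled and below 0 in both cohorts, and Retnla is the point farthest to the right, at 9.74 and 9.12.

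Markers of other cells and tissues were read beside the members. All 8 genes of a lung fibroblast list were called lower in both cohorts, with median log2 fold changes of -1.36 in Sham offspring and -1.46 in PM offspring. Its summed level was 5605 to 7402 RPM in Sham and 1306 to 3742 RPM in Sham-OVA, and 5948 to 7436 RPM in PM and 1723 to 4606 RPM in PM-OVA, with no overlap in either cohort. The cardiac muscle list summed to 98.3 to 251 RPM in Sham, 55.9 to 448 RPM in Sham-OVA, 141 to 316 RPM in PM and 104 to 187 RPM in PM-OVA, and 3 of its 9 tested genes were called lower and 0 higher in each cohort. The mesothelial list summed to 232 to 1005 RPM in Sham, 387 to 545 RPM in Sham-OVA, 291 to 562 RPM in PM and 279 to 750 RPM in PM-OVA. Of its 7 genes, 1 was called higher and 2 lower in each cohort. The thymus list had 2 of 6 genes tested, with 1 lower in each cohort, and Ptcra at 0 in all libraries. PM replicate 1, the highest PM lung for most adipocyte genes, also held the highest cardiac sum of its group, at 316 RPM. Sham replicate 4, the highest Sham lung for most members, held 231 RPM, within its group. The part of these cells and tissues in the members' values was not tested.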

How the data were processed

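Lung RNA from 23 offspring was sequenced by the authors as single-end reads of stranded polyA libraries, trimmed, aligned to the mouse genome GRCm38 (mm10) with Bowtie2 and counted per gene in SeqMonk. The deposited table is labelled RPKM but holds RPM, reads per 1000000 reads of the library: in every library, division by the smallest value gave a whole number for 100% of the entries (tolerance 0.01 read plus rounding), so reads were recovered for count tests. Whether counting used strand is not given in the sources used here.

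Values were tested as log2(RPM + 0.5) with limma 3.58.1 (R 4.3.3; moderated test with an intensity trend, 2-sided, Benjamini-Hochberg adjustment) over the 16795 genes that reached 0.5 RPM in 4 or more of the 23 libraries, and called at an adjusted p under 0.05. Fold changes on this scale understate changes of low genes. Each pair of groups was fitted alone, and the interaction over all groups. DESeq2 1.42.0 and edgeR 4.0.16 were run on the recovered reads. Scripts were tested on simulated data. Exon lengths came from GENCODE M21.

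The members and lists were chosen with earlier results of these data known. Genes named were all members, the partners of the secreted members, the 3 genes of smallest p of each other fat list in each OVA comparison, and the 10 genes most like Adipoq. Cebpa, Adig, Cpt2, Fabp5, Lep, Zic1, Otop1 and Pparg were added where they complete a count or mark a cell type. Precision is limited by depth, and limits set by a count of 0 (3 reads) cover counting error only.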

Additional observations from a re-analysis of the deposited data

Results flagged for a closer look

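Within groups of 4 to 7 libraries, 3 of 32 gene and group pairs held a library that stood far from the others of its group by Dixon's criterion, where chance flags about 1 in 20. Ucp1 was 0.521 RPM in Sham replicate 3, on 9 reads, and 0.138 RPM in PM replicate 1, on 2 reads. Fabp4 was 20.8 RPM in Sham replicate 4, the Sham library that was also highest for Adipoq, Plin1, Cfd, Retn, Cidea and Pck1.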

How the results depend on the processing

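In PM offspring, no member changed sign in the 188 alternative values, while 22 lost a call and 7 gained one. The count of 5 members was 3 with quantile normalisation (10733 of 16795 genes called) and 3 with array weights (11788 genes). Without the libraries under 6000000 reads it was 1 (8569 genes). In Sham offspring the count of 2 was 5 with array weights (12808 genes) and 4 without the library under 6000000 reads (12146 genes). It was 2 to 4 when 1 library was left out. The study's cutoffs (adjusted p under 1e-06 and a log2 fold change over 1) were set for DESeq2 and were applied here to the limma fit. They left 0 members in each cohort, with 758 genes called in Sham offspring and 48 in PM offspring. In DESeq2 the lowest adjusted p of a member after OVA was 1.69e-05, for Fabp4 in Sham offspring. The cause was not tested. Depth limits Ucp1, Retn, Plin1, Pck1 and Adipoq, which rest on at most 18 reads in any OVA library.

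Signs turned in Sham offspring for Cfd (0.21 with quantile normalisation, 0.064 with median-of-ratios scaling, 0.55 in DESeq2, 0.34 in edgeR, 0.072 at 1 depth, -0.72 to 0.012 with 1 library left out), Cidea (0.42, 0.11, 0.17 and 0.24 in the first 4 of these, -0.28 to 0.096 with 1 left out) and Retn (-0.055 with array weights). Between PM and Sham, Pck1 was 0.043 with 0.1 RPM added and Adipoq -0.023 at 1 depth, and with 1 library left out Adipoq ran from -0.0019 to 0.45, Plin1 from -0.019 to 0.56, Cfd from -0.021 to 0.44, Retn from -0.091 to 0.18, Pck1 from -0.38 to 0.39 and Fabp4 from -0.012 to 0.36. Between PM-OVA and Sham-OVA, Adipoq was 0.038 with 0.1 RPM added, 0.39 with array weights, 0.55 without the shallow libraries, and -0.31 to 0.37 with 1 left out. In the interaction, array weights gave 0.47 for Adipoq and 0.41 for Pck1 (4616 genes called, 0 members), leaving out the shallow libraries gave 0.33 and 0.062 (721 genes called, 0 members), 1 depth gave -0.10 for Plin1, and with 1 left out Adipoq ran from -0.53 to 0.15 and Plin1 from -0.20 to 0.49.

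The replicate numbers were not used to pair the samples in the main fits. The correlations of same-numbered libraries ran from -0.31 to 0.62, which cannot show whether any of them shared a dam. In the OVA groups most replicate numbers differ from those in the library names, so the replicate block matched lungs by label only. Calls lost or gained with the block are therefore no test of a pairing. With the replicate block, 2 members were called in Sham and 4 in PM offspring, 0 elsewhere, and Adipoq between PM-OVA and Sham-OVA was 0.057. Removal of the length and GC trend, thinning to 1 depth and leaving out the shallow libraries were chosen after seeing the data.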
